A study of Bos taurus with 12 samples.

Results

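The miRNAs bta-miR-103 and bta-miR-107 were followed in bovine granulosa cells, taken from subordinate follicles (SF) or dominant follicles (DF) either on day 3 or on day 7 after estrus. They were chosen by name, and the 2 mature names are among 755 in the deposited counts. Granulosa cells line the follicle, nurse the oocyte and make estradiol. The dominant follicle is the one that keeps growing, while subordinate follicles of the same wave stop growing and regress. The follicles came from estrous synchronized Simmental heifers, all treated with the prostaglandin analogue cloprostenol and the GnRH analogue buserelin. Follicles were classed as SF or DF by diameter, with other limits at day 7 than at day 3. Fluid was pooled by follicle size before the cells were collected. By the study's methods the DF of day 7 were no more in number than their libraries, while the follicles of the other classes outnumbered theirs. Each of the 4 groups had 3 libraries, which the labels call biological replicates without naming the animals. If replicates shared animals or pools, the p values given here would measure only the spread between these samples.

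MiR-103 and miR-107 form one family, with the same seed (the stretch near the 5′ end that pairs with target mRNAs) and mature sequences that are nearly identical and differ close to the 3′ end. Their genes lie inside pantothenate kinase genes, whose products start the synthesis of coenzyme A. In the RefSeq gene table of the assembly ARS-UCD2.0, the span of PANK3 holds MIR103-1, that of PANK2 holds MIR103-2 and that of PANK1 holds MIR107. The family is known for repressing Dicer, the enzyme that cuts miRNA precursors, and for reducing insulin sensitivity in liver and fat, in part through caveolin-1. These roles are background and were not measured here.

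The files list 3 entries for the family. The mature miRNA bta-miR-103 appears at both of its precursors, bta-mir-103-1 and bta-mir-103-2, and bta-miR-107 at its single precursor. The counts at both bta-miR-103 entries differed by 1 to 3 reads in a library, so nearly the same reads were listed at each and the counts do not tell the PANK3 from the PANK2 copy. The entry with the higher total, bta-mir-103-2, was used. Reads that end before the base in which the 2 mature miRNAs differ could be counted under either name or under both. The split of reads between them is therefore uncertain, and the sum of both may count some reads at each name. This sum is given where it changes a call.

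The libraries held between 160418 and 405129 reads on known miRNAs, and the smallest was DF replicate 2 at day 7. Over all libraries bta-miR-103 made up 0.198% of these reads and ranked 53 among the 755 names, while bta-miR-107 made up 0.0998% and ranked 74. The fewest reads in any library were 290 for bta-miR-103 and 113 for bta-miR-107, both in SF replicate 2 at day 3. Both members were therefore well covered in every library. The binomial intervals given for shares of reads cover counting error only.

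In normalized counts (raw counts divided by a median-of-ratios size factor taken over all 12 libraries), the level of bta-miR-103 was alike in 3 groups and higher in the fourth. In SF at day 3 the libraries had 441, 390.4 and 388 normalized counts for replicates 1, 2 and 3. The DF libraries of that day had 439.6, 462 and 483. At day 7 the SF libraries had 419.7, 427 and 433 and the DF libraries 808, 559 and 1048. Every DF library of day 7 was above each of the 9 others. The day 3 means were 407 ± 29.9 (SF) and 461 ± 21.6 (DF), and the day 7 means 426 ± 6.52 (SF) and 805 ± 245 (DF), each with its SD (n = 3). In rising order the groups were SF at day 3, SF at day 7, DF at day 3 and DF at day 7. The first and second of these overlapped in their libraries and did not pass the test. DF at day 3 started above all SF libraries of day 7, but SF of one day and DF of another were not compared by a test.

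The level of bta-miR-107 was lower than that of bta-miR-103 in every library and rose more in DF. At day 3 the SF libraries had 175, 152 and 155 normalized counts and the DF libraries 130.0, 150.4 and 182, so that the groups overlapped fully. At day 7 the values in SF were 147, 227 and 173, and those in DF 579.8, 268 and 850.4. The lowest DF library of day 7, replicate 2, lay close above the highest SF library, also replicate 2. Its day 3 means were 161 ± 12.3 (SF) and 154 ± 26.1 (DF), and its day 7 means 182 ± 40.5 (SF) and 566 ± 292 (DF), each with its SD (n = 3). The order was thus DF at day 3, SF at day 3, SF at day 7 and DF at day 7, and neither of the first 2 steps passed the test. The spread was widest in DF at day 7, where the SD was 51.5% of the mean for bta-miR-107 and 30.4% for bta-miR-103.

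**Figure D1:**
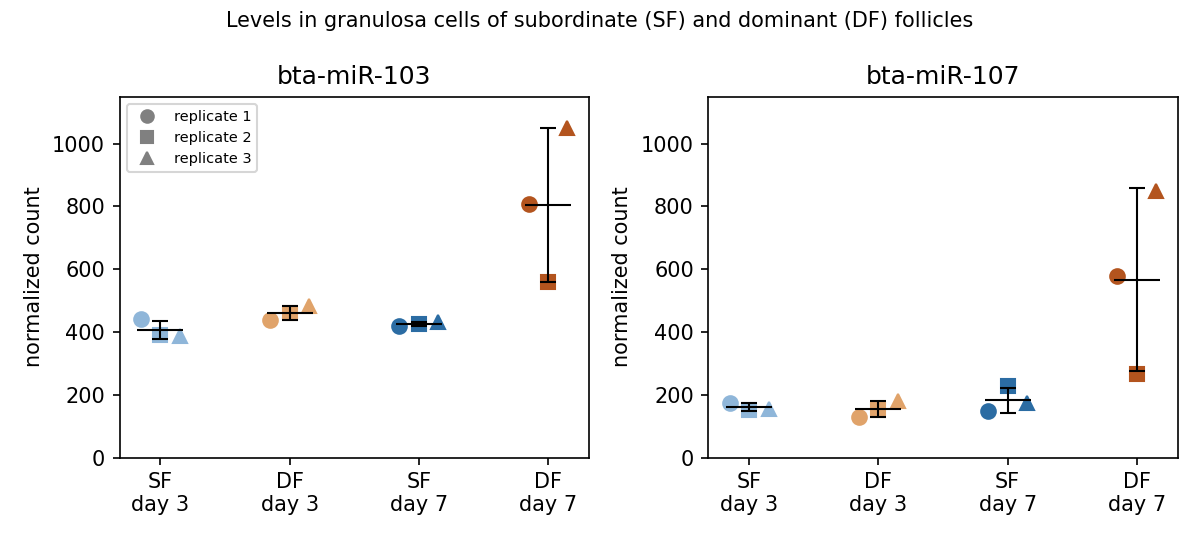
Normalized counts of bta-miR-103 (left) and bta-miR-107 (right) in each library of the 4 groups, with marker shapes for replicates 1 to 3 and black bars for the group mean and SD (n = 3). The DF libraries of day 7 lie above all others in both panels, with replicate 2 lowest among them at 559 and 268.

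To see whether the members differed between follicle classes early in the cycle, SF was compared with DF at day 3. Neither bta-miR-103 nor bta-miR-107 was differentially expressed. On the log2 scale SF minus DF was -0.23 (95% interval -0.53 to 0.08, adjusted p = 0.355, edgeR) for bta-miR-103 and 0.02 (95% interval -0.36 to 0.39, adjusted p = 0.967, edgeR) for bta-miR-107. Both intervals lie within the 2 fold threshold of the study, a log2 fold change of 1. The sign of the bta-miR-107 value turned with the scaling, to -0.01 with TMM factors and -0.05 with library size alone. A miRNA was called differentially expressed when it changed by 2 fold or more, at an unadjusted p up to 0.05 and a false discovery rate (the adjusted p) up to 10%, both from edgeR. By this rule 5.67% of the 335 miRNAs tested at this day were called, 3.88% as higher and 1.79% as lower in SF.

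At day 7 bta-miR-107 was lower in SF than in DF by 2.92 fold. On the log2 scale this was -1.54 ± 0.38 (standard error; edgeR, adjusted p = 0.0104), and all 3 SF libraries were below all 3 DF libraries. The change of bta-miR-103 went the same way but stayed under the 2 fold threshold, at -0.84 ± 0.25 on the same scale (edgeR, adjusted p = 0.0267) and with no overlap of libraries. It therefore passed the limits on p and false discovery rate but was not called. At this day 33.4% of the 350 miRNAs tested were called, 15.1% as higher and 18.3% as lower in SF, so 1 call among 2 members is not set apart from the background. In 45.7% of the miRNAs tested, the SF and DF libraries of day 7 did not overlap. In bulk RNA a change in the share of cells that carry a miRNA cannot be told apart from a change in its amount per cell.

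Whether bta-miR-103 was called at day 7 depended on DF replicate 2. This was the shallowest library, with 336 reads of bta-miR-103, and of the DF libraries of day 7 it had the most leukocyte markers (given below). Without this library the log2 fold change of bta-miR-103 was -1.04 and narrowly passed all thresholds, and that of bta-miR-107 was -1.88. In the other comparisons that use this library, bta-miR-103 stayed under 2 fold whichever library was left out. Its values were 0.56 to 0.98 in DF between the days and -0.90 to -0.51 in the follicle by day interaction (both given below). With the reads of both members summed to a single feature the value was -1.09 ± 0.28 (edgeR, adjusted p = 0.0142), which also passed.

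The temporal change was examined within each follicle class. In DF, bta-miR-107 was 3.62 fold higher at day 7 than at day 3, or 1.86 ± 0.33 on the log2 scale (standard error; edgeR, adjusted p = 0.000449). The value for bta-miR-103 was 0.78 ± 0.23 (edgeR, adjusted p = 0.0150), 1.72 fold, again past the limits on p but under the threshold of 2 fold. For both members all DF libraries of day 7 were above all of day 3. The summed reads of both gave 1.14 (adjusted p = 0.00294, edgeR) and were called. Of 360 miRNAs tested in DF, 40.3% were called, 24.4% as higher and 15.8% as lower at day 7, and the libraries of the days did not overlap for 50.0%. By the size of its p value bta-miR-107 ranked 62 and bta-miR-103 ranked 116 among them. These comparisons at day 7 and in DF share the same 3 DF libraries and are not independent of each other.

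**Figure D2:**
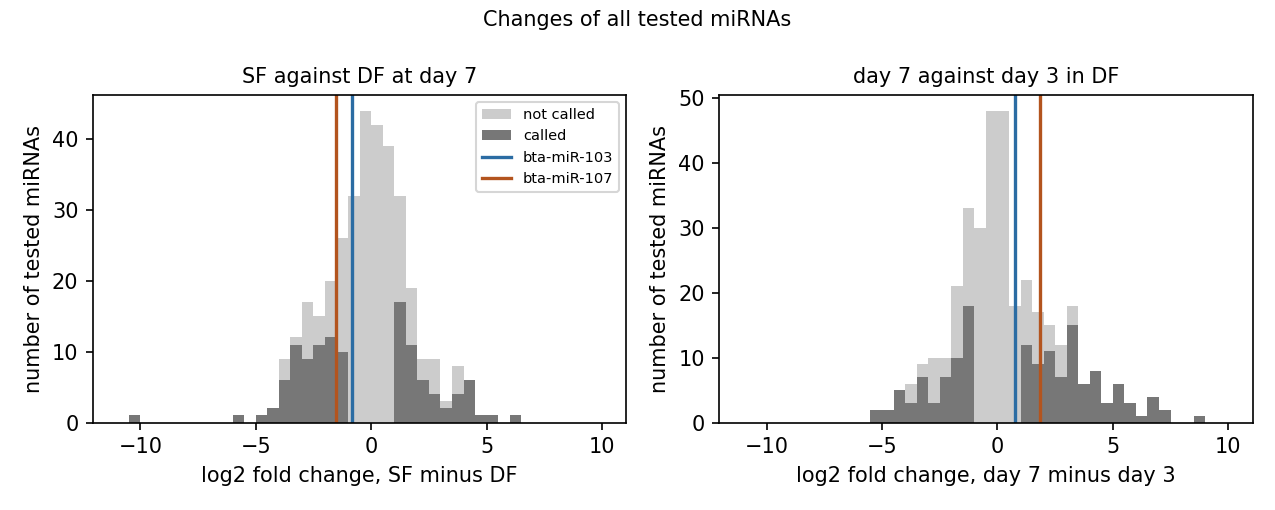
Histograms of the log2 fold changes of all tested miRNAs for SF minus DF at day 7 (left, 350 miRNAs) and day 7 minus day 3 in DF (right, 360 miRNAs), with called miRNAs in dark grey. The vertical lines mark bta-miR-103 at -0.84 and 0.78, which was not called, and bta-miR-107 at -1.54 and 1.86. The values of bta-miR-107 lie inside the spread of the other called miRNAs.

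In SF neither member moved detectably between the days. The log2 fold change of day 7 against day 3 was 0.09 (95% interval -0.28 to 0.45, adjusted p = 0.937, edgeR) for bta-miR-103 and 0.20 (95% interval -0.29 to 0.69, adjusted p = 0.928, edgeR) for bta-miR-107. With library size alone the sign of the bta-miR-103 value turned, to -0.06, and without SF replicate 2 of day 7 that of bta-miR-107 was -0.03. Of the 337 miRNAs tested in SF, 0.593% were called, 0.297% in each direction.

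Whether the SF and DF difference itself changed from day 3 to day 7 was tested as an interaction over all 12 libraries. For bta-miR-107 the difference of SF against DF was lower at day 7 by 1.70 on the log2 scale, with a fitted value of -1.70 ± 0.44 (edgeR, adjusted p = 0.00833), and this was called. For bta-miR-103 the value was -0.74 (95% interval -1.35 to -0.12, adjusted p = 0.0765, edgeR), under the threshold of 2 fold. Of all miRNAs tested for the interaction 26.5% were called, 14.3% in the direction of bta-miR-107 and 12.2% in the other. The interaction uses the same DF libraries of day 7 and is not independent of the comparisons above.

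The unequal size of the changes was followed by the ratio of the members within each library, which needs no scaling factor. Reads of bta-miR-107 made up 28.3 ± 0.254% (SF) and 24.9 ± 2.28% (DF) of the reads of both at day 3, and 29.7 ± 4.47% (SF) and 39.7 ± 6.46% (DF) at day 7 (SD, n = 3). The SF libraries of day 3 were almost equal, at 28.4%, 28.0% and 28.5%. The DF libraries of day 3 had 22.8%, 24.6% and 27.4%, all below these. At day 7 the values in SF were 25.9%, 34.7% and 28.6%. Those in DF were 41.8% (Wilson 95% interval 39.4% to 44.2%), 32.4% (28.4% to 36.6%) and 44.8% (42.7% to 46.9%). The share in DF replicate 2 therefore lay within the range of SF at that day, while replicates 1 and 3 were above it. As the share ranged from 22.8% to 44.8%, the reads listed for bta-miR-107 were not a fixed part of those for bta-miR-103. The share does not tell how many reads were counted under both names, since read lengths in each library were not examined.

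On the log2 scale the ratio of bta-miR-107 to bta-miR-103 in DF was -1.59 ± 0.18 at day 3 and -0.61 ± 0.40 at day 7, a difference of 0.98 or 1.97 fold. No library overlapped, and the exact permutation test gave p = 0.1, the smallest that 3 against 3 libraries can give. Between SF and DF at day 7 the ratio differed by -0.63 (exact permutation test, p = 0.2) and the groups overlapped. At day 3 it was higher in SF by 0.25 with no overlap (exact permutation test, p = 0.1). In SF it differed between the days by 0.09 (exact permutation test, p = 0.7). The tests were two-sided, and adjusted over the 4 comparisons the p values were 0.2, 0.267, 0.2 and 0.7 in the order given. None can pass 0.05 in this design.

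**Figure D3:**
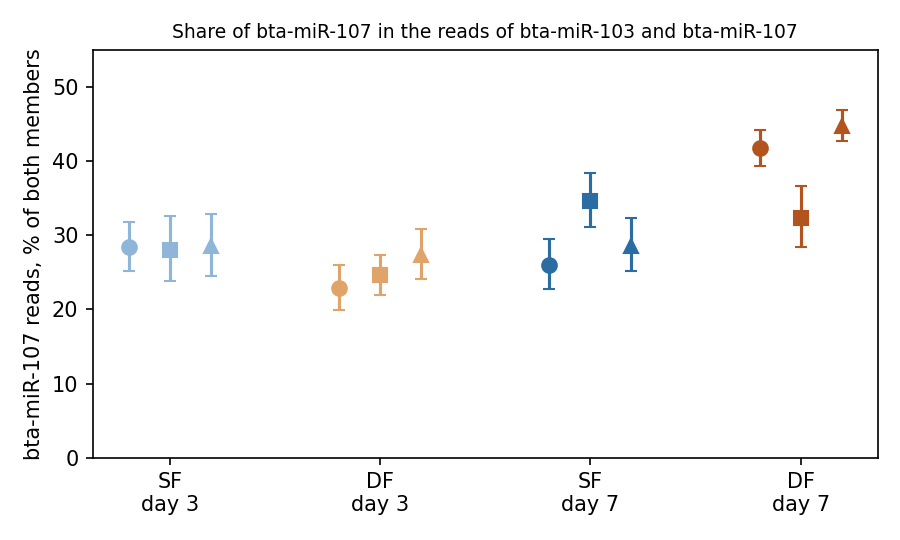
Reads of bta-miR-107 as a percentage of the reads of bta-miR-103 and bta-miR-107 in each library, with Wilson 95% intervals that cover counting error only and marker shapes for replicates 1 to 3. DF replicates 1 and 3 of day 7 stand at 41.8% and 44.8%, while DF replicate 2 at 32.4% lies among the SF libraries.

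Markers of other cell types were read in the same libraries, since follicular fluid can carry other cells. In DF between the days 24.4% of all miRNAs tested were called as higher and 15.8% as lower, and at day 7 15.1% as higher and 18.3% as lower in SF, against which the counts of each list stand. The leukocyte list (bta-miR-142-3p, bta-miR-142-5p, bta-miR-150 and bta-miR-223) summed to between 108 and 220.2 normalized counts in the SF libraries of day 3 and between 116 and 162 in the DF libraries of that day. At day 7 the sums were 184 to 705 (SF) and 783 to 8636 (DF). All 4 were called as higher at day 7 in DF, and 3 of 4 as lower in SF than in DF at day 7. Within DF at day 7 the list was highest in replicate 2, at 8636, and lowest in replicate 3, at 783, with replicate 1 at 3110.4. This order of the 3 libraries is the reverse of that of both members. At day 3, bta-miR-142-3p had no read in either group.

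The theca or stroma list (bta-miR-143, bta-miR-145, bta-miR-199a-3p, bta-miR-199a-5p and bta-miR-214) summed to 8525 to 16576 normalized counts in DF at day 7 and to 2447.5 to 5378 in the other 9 libraries. All 5 were called as higher at day 7 in DF, and 4 of 5 as lower in SF than in DF at day 7, again beside 24.4% and 18.3% of all miRNAs tested. At day 3 the difference went the other way, with log2 values of SF minus DF from 0.53 for bta-miR-143 to 1.03 for bta-miR-214 and adjusted p (edgeR) of at most 0.0739 for all 5, of which bta-miR-214 was called as higher in SF. Within DF at day 7 the sum of the list was highest in replicate 3 and lowest in replicate 2, the same order as that of both members. Most of this sum was bta-miR-143, at 13883 of 16576 in replicate 3 and 6474 of 8525 in replicate 2. The level of bta-miR-199a-3p ranged only from 1225 to 1338 in these libraries. The gonad or granulosa list (bta-miR-202, bta-miR-224 and bta-miR-383) summed to 371 to 991 in DF at day 7 against 2326 to 3806 elsewhere, and bta-miR-383, with few reads elsewhere, had none in DF at day 7. The sum too was highest in replicate 3 and lowest in replicate 2 of these libraries. Of its 3 miRNAs, 2 were called as lower at day 7 in DF (15.8% of all miRNAs tested) and all 3 as higher in SF than in DF at day 7 (15.1% of all). The endothelial list (bta-miR-126-3p and bta-miR-126-5p) summed to 130.0 to 160.2 in DF at day 7 and to 61.6 to 220.5 in the other libraries. For the erythrocyte list (bta-miR-451, bta-miR-144 and bta-miR-486) the sums were 808 to 2322 in DF at day 7 and 315 to 1642 elsewhere, and bta-miR-144 had no read in SF at day 7. In DF between the days 1 of 2 endothelial and none of 3 erythrocyte markers were called, and at day 7 none of 2 endothelial and 2 of 2 tested erythrocyte markers, as lower in SF. The part of these markers in the changes of bta-miR-103 and bta-miR-107 was not tested.

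The miR-15 and miR-16 family shares most of the seed letters of miR-103 and miR-107 at an offset of 1 base and is known for restraining the cell cycle and survival. Of its 7 listed members 4 moved the other way at day 7. In SF against DF at day 7, 4 of 7 were called as higher in SF and none as lower, against 15.1% and 18.3% of all miRNAs tested, with a median log2 fold change of 1.08 against -0.05 over all miRNAs tested. The largest was that of bta-miR-497, with 67.1 normalized counts in DF and 256 in SF and a value of 2.00 ± 0.27 (edgeR, adjusted p = 0.000418). The other called ones were bta-miR-195 (1.67), bta-miR-15b (1.42) and bta-miR-16b (1.08). The other 3 were not called, with log2 values of -0.83 for bta-miR-16a (adjusted p = 0.0188, edgeR), 0.14 for bta-miR-15a and -0.0056 for bta-miR-424-5p.

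In DF, 5 of the 7 were called as lower at day 7 and none as higher, against 15.8% and 24.4% of all miRNAs tested, with a median of -1.22 against 0.05 over all miRNAs tested. The log2 fold changes were -2.07 for bta-miR-497, -1.68 for bta-miR-15b, -1.63 for bta-miR-195, -1.22 for bta-miR-16b and -1.01 for bta-miR-424-5p. Not called were bta-miR-15a at -0.55 and bta-miR-16a at 0.47 (adjusted p = 0.0944, edgeR). The value of bta-miR-16a went in the direction of bta-miR-107, with no overlap of libraries. None of the 7 was called at day 3 or in SF between the days. At day 3, however, bta-miR-16a (-0.78, adjusted p = 0.00178, edgeR), bta-miR-15a (-0.76, adjusted p = 0.0130, edgeR) and bta-miR-16b (-0.35, adjusted p = 0.0695, edgeR) were lower in SF with no overlap of libraries, under the threshold of 2 fold. For bta-miR-16b this is the reverse of its direction at day 7. The interaction was called for 4, all with positive values, from 1.32 for bta-miR-16b to 1.96 for bta-miR-497, against -1.70 for bta-miR-107. Members of this family are similar in sequence too, so the split of reads among them is also uncertain.

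Other miRNAs known for insulin, glucose or lipid handling moved with bta-miR-107 where they were called. Of 9 listed (bta-miR-29a, bta-miR-29b, bta-miR-29c, bta-miR-33a, bta-miR-33b, bta-miR-122, bta-miR-143, bta-miR-375 and bta-miR-378), 6 had enough reads to be tested in DF between the days, and 4 were called as higher at day 7, against 24.4% of all miRNAs tested. The largest with ample reads was bta-miR-29a, a repressor of collagen and other matrix genes, which went from a mean of 148 to one of 782 normalized counts, 2.39 ± 0.22 on the log2 scale (edgeR, adjusted p = 8.20e-07). For bta-miR-143, which is also on the theca or stroma list and is abundant in smooth muscle and stroma, the value was 1.84 ± 0.28 (edgeR, adjusted p = 0.000117). The called values of bta-miR-29b and bta-miR-29c rested on few reads, 16.5 and 6.76 normalized counts in DF at day 7. For bta-miR-378, which lies in an intron of a coactivator gene of mitochondrial metabolism, the value was 0.88 and not called, as for bta-miR-103. At day 7, 3 of 6 tested were called as lower in SF, against 18.3% of all miRNAs tested, namely bta-miR-29a (-1.42), bta-miR-29b (-2.15) and bta-miR-143 (-1.32). None was called at day 3, and none of the 5 tested in SF between the days. The list medians were -1.12 at day 7 and 2.09 in DF, against -0.05 and 0.05 over all miRNAs tested.

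**Figure D4:**
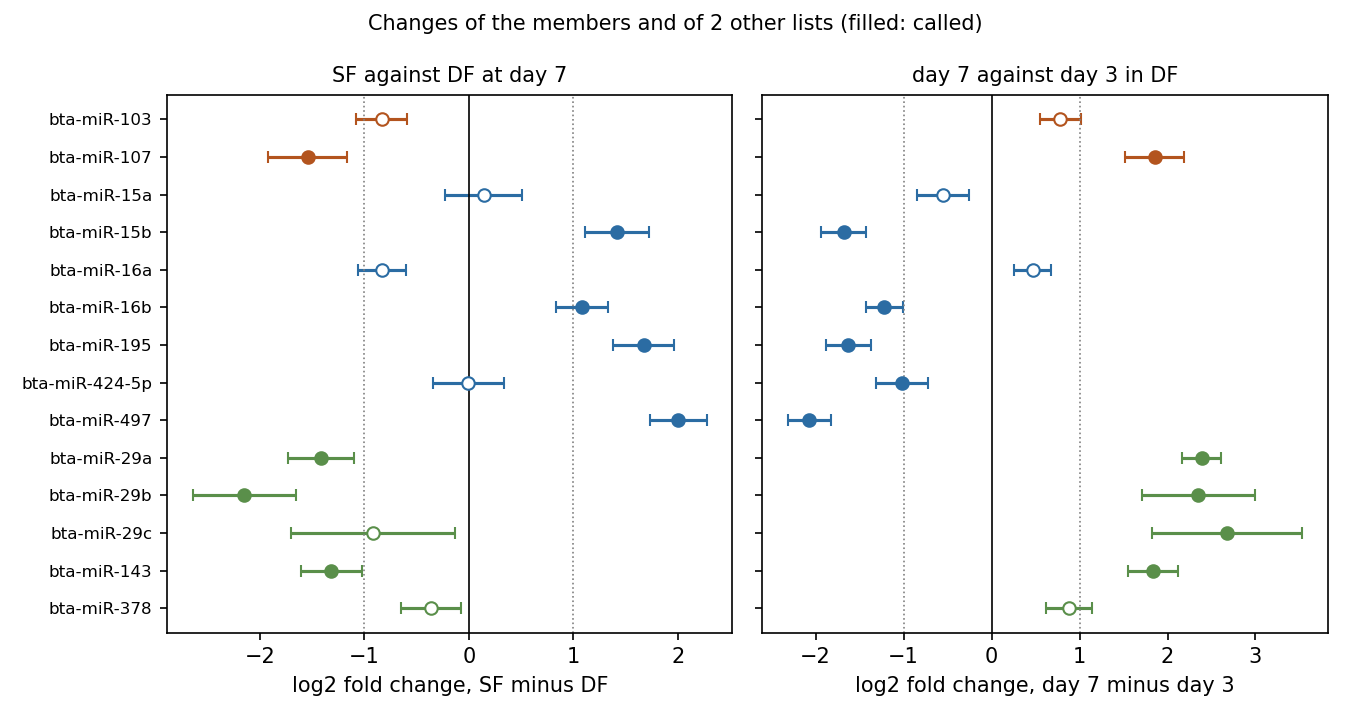
Log2 fold changes with standard errors of the members (orange), the miR-15 and miR-16 family (blue) and 5 miRNAs known for insulin, glucose or lipid handling (green), for SF minus DF at day 7 and day 7 minus day 3 in DF. Filled points were called and dotted lines mark the 2 fold threshold, and the called blue points lie on the opposite side of 0 from bta-miR-107.

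To find the miRNAs with the most similar pattern, each of 186 miRNAs with a mean of at least 10 reads was centred on its own mean of log2(normalized count + 1) over the 12 libraries. Likeness was the root mean square difference of these centred values, so a smaller value means a more similar pattern. The values were not scaled to equal spread, so the measure counts the size of a change as well as its shape. The nearest to bta-miR-107 were bta-miR-23b-3p at 0.300, bta-miR-143 at 0.320 and bta-miR-32 at 0.400, followed by bta-miR-103 at 0.419 and bta-miR-29a at 0.432. The median over the 185 miRNAs compared with it was 0.972. Like bta-miR-107, bta-miR-23b-3p had its highest group mean in DF at day 7, 1.43 above its own mean, against 1.22 for bta-miR-107. It was picked for nearness in these same libraries, so a shared peak follows largely from the choice.

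The nearest to bta-miR-103 were bta-miR-98, a member of the let-7 family, at 0.205, bta-miR-27b at 0.234, bta-miR-421 at 0.245, bta-miR-6529 at 0.265 and bta-miR-1468 at 0.286, with a median of 0.721. In this order bta-miR-107 stood at place 24 of 185. So bta-miR-103 was the fourth nearest to bta-miR-107 but had 23 miRNAs closer to it than bta-miR-107. The lists of 5 share no miRNA. Because spread counts in the measure, neither the place nor the lists tell a difference in shape from one in size. The spread of bta-miR-107 over the 12 libraries, an SD of 0.84 on this log2 scale, exceeded that of 67.2% of the 186 miRNAs, and the SD of bta-miR-103, 0.44, exceeded that of 33.9%. These values describe the 12 libraries, which share their scaling.

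**Figure D5:**
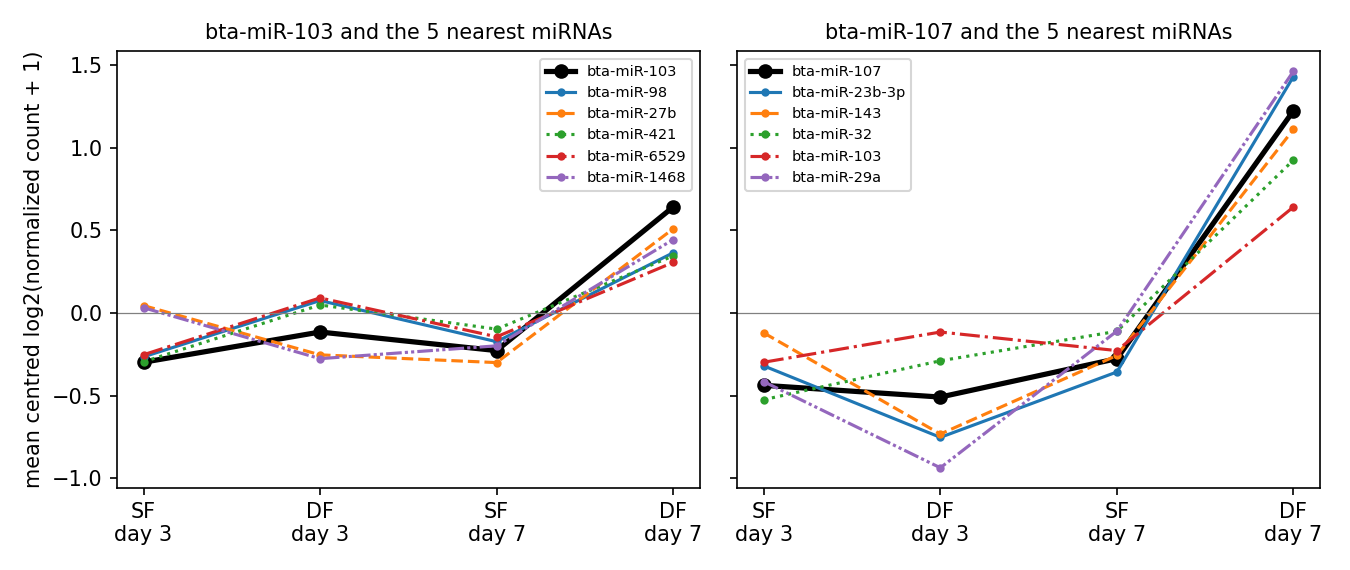
Group means of centred log2(normalized count + 1) for bta-miR-103 (left, black) and bta-miR-107 (right, black) with the 5 miRNAs nearest to each over the 12 libraries (n = 3 per group mean). All lines are highest in DF at day 7, with bta-miR-103 at 0.64 and bta-miR-107 at 1.22. The other lines were picked for nearness in these same libraries, which favours a shared peak.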

How the data were processed

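Granulosa small RNA was sequenced in 12 libraries (TruSeq Small RNA, Illumina HiSeq reads). The authors called bases with CASAVA 1.8.0, trimmed with cutadapt, aligned to the bovine genome UMD 3.1 and counted reads on miRBase 20 miRNAs with miRDeep2. The deposited values are raw read counts per mature and precursor pair, neither normalized nor filtered, and a read matching several precursors is counted at each. Groups came from the sample labels.

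Per mature name the entry with the highest total was kept. Each comparison used its 6 libraries and the miRNAs detected (1 read or more) in 2 or more libraries of either group, edgeR 4.0.16 (R 4.3.3) with RLE factors, the two-sided quasi-likelihood F test and Benjamini-Hochberg adjustment over all miRNAs tested. Standard errors are the log2 fold change divided by the root of F, an approximation. The members, lists and tests were chosen with earlier results of these data known. Named miRNAs are the members, 2 related lists, marker lists and the 5 nearest patterns. DESeq2 1.42.0 was an alternative.

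Replicate numbers are shared between groups but not tied to animals. Over 186 miRNAs, deviations from group means of same-numbered libraries correlated by 0.13, 0.16 and 0.18 between SF and DF at day 7. A pairing is possible there, but values of this size cannot show it. The SF replicates 3 of day 3 and day 7, from heifers slaughtered on different days, also correlated by 0.11. At day 3 the correlations between SF and DF were -0.14, -0.09 and -0.03. With the replicate block at day 7 the log2 fold changes were -0.80 for bta-miR-103 and -1.45 for bta-miR-107, with no change of call.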

Additional observations from a re-analysis of the deposited data

Results flagged for a closer look

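The change of the SF and DF difference from day 3 to day 7 was tested directly and passed for bta-miR-107, with an interaction of -1.70 on the log2 scale (standard error 0.44, adjusted p = 0.00833, edgeR). Within the days, SF minus DF on the log2 scale was 0.02 (day 3) and -1.54 (day 7), so the interaction largely repeats the day 7 difference. The fit shares a dispersion among the groups. The SD of bta-miR-107 was 51.5% of the mean in DF at day 7 and 7.64% in SF at day 3. The p value may thus be too small, given the spread in DF at day 7. The same limit holds for bta-miR-107 at day 7 and in DF between the days, as those fits share a dispersion too. There the SD was 22.2% of the mean in SF at day 7 and 16.9% in DF at day 3. Normalized counts were 161 and 154 in SF and DF at day 3, and 182 and 566 at day 7. With a library left out in turn the interaction lay between -1.996 and -1.29.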

How the results depend on the processing

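The alternatives were the DESeq2 Wald test, TMM factors, library size alone, a fit of unfiltered miRNAs, a minimum of 10 reads in 3 libraries, all 12 libraries in one fit, entries as listed, counts summed over precursors, both members summed, a replicate block, a 5% limit on the false discovery rate, another prior count (2) and leaving out each library. No call of bta-miR-107 was lost under those that keep it as a feature of its own, and the replicate block changed no call of a member (bta-miR-107 in DF 1.73 with the block). The summed reads of both members, a different quantity from either, were called at day 7 (-1.09), in DF (1.14) and in the interaction (-1.06), where bta-miR-103 alone was not. For SF against DF at day 3, the summed reads, mostly those of bta-miR-103, gave -0.17, and bta-miR-107 turned negative with TMM (-0.014) and library size alone (-0.050) and ranged from -0.084 to 0.15 with a library left out. In SF between the days, bta-miR-103 was -0.062 with library size alone, and with a library left out bta-miR-107 ranged from -0.025 to 0.32 and the log2 ratio of the members from -0.076 to 0.22. With a library left out, bta-miR-103 at day 7 ranged from -1.04 to -0.63. Library size alone moved the median of all miRNAs by -0.15 at day 7, -0.14 in DF and -0.14 in SF. The cause of these changes was not tested.

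The number of called miRNAs, from which the background shares come, moved by over 1.5 times in some settings. Another filter, or all entries as listed, also changes how many are tested, so a moved count need not mean a moved share. At day 3 it went from 19 to 11 (DESeq2), 12 (10 reads in 3 libraries), 8 (all libraries in one fit) and 10 (without SF replicate 1), and in DF from 145 to 92 (10 reads in 3 libraries). In SF between the days it went from 2 to 5 (DESeq2), 12 (unfiltered), 10 (entries as listed), 7 (replicate block), 1 (all libraries in one fit) and 0 (10 reads in 3 libraries, edgeR, with 25 at an unadjusted p ≤ 0.05). With a library left out it ranged from 0 to 20, the most without SF replicate 1 of day 7, and was 0 by edgeR without SF replicate 1 or 2 of day 3 or SF replicate 2 of day 7, with 25, 26 and 26 at an unadjusted p ≤ 0.05.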

Other observations

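Among the SF libraries, replicate 2 of day 7 had the highest level of bta-miR-107, 227 normalized counts, and the highest share of it among the reads of both members, 34.7%. It also had the highest leukocyte marker sum of the SF libraries (705 normalized counts) and the highest endothelial sum of all 12 libraries (220.5). Its gonad or granulosa sum was the lowest of the SF libraries (2326). The theca or stroma sum was the highest of the SF libraries of its day (5326), but below that of SF replicate 1 of day 3 (5378). By contrast, its erythrocyte sum was the lowest of the SF libraries of its day (438). Its bta-miR-103 level of 427 lay between those of the other SF libraries of that day. Whether the marker sums bear on the level of bta-miR-107 was not tested.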
